A study of Homo sapiens with 6 samples.

Results

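The genes described here are 33 genes of the p53 pathway, out of 18318 genes kept from the count table of a transfection experiment in A375 melanoma cells. The set holds MDM2 and MDM4, the main inhibitors of the p53 protein, and 31 genes known as p53 targets or as members of the p53 feedback loop. Members were chosen by gene symbol, by a rule that uses no measured value, but with earlier results of these data known. They were found through the Ensembl identifiers of the table and the GENCODE annotation. All 33 were found in the table, and 31 had enough counts to be tested.

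The 6 RNA sequencing libraries came from A375, an established human malignant melanoma line. In 3 of them the cells carried a pcDNA3.1 plasmid for SLNCR, a long non-coding RNA annotated as LINC00673, and in 3 they carried the plasmid backbone alone (empty vector). Per the labels, the plasmid held a puromycin resistance gene and a CAG promoter, and all 6 cultures were grown in DMEM with 10% serum, transfected with a lipid reagent and kept 48 h in 2 µg/mL puromycin. The stated purpose was to find genes regulated by SLNCR and the transcription factors linked to them. The replicates are called biological, and how the cultures were separated is not stated, so p-values measure only the spread between these libraries. The plasmid's RNA is driven by that CAG promoter, in 1 cell line.

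p53 is a transcription factor that is held at a low level in unstressed cells. MDM2 is a ubiquitin ligase that marks p53 for degradation, and MDM4 is a related protein that binds p53 and blocks its activity. DNA damage and other stress release p53, which then binds response elements near genes that stop the cell cycle, repair DNA, adjust metabolism or lead to apoptosis. It also switches on MDM2, PPM1D and CCNG1, whose products restrain it again. In many melanomas MDM2 and MDM4 are known to hold p53 in check.

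Total counts were between 9287450 and 10822083 per library, and LINC00673 was 10.4-fold higher after the SLNCR plasmid (19.5 to 21.4 CPM, which are counts scaled by library size, with the empty vector and 169.8 to 247 CPM with SLNCR). The labels call the cells epithelial. Of 12 epithelial and keratinocyte markers listed, 11 were found (GRHL2 was not), and only 3 reached a mean of 1 CPM (KRT7, DSP and CLDN4). CDH1, EPCAM, KRT5 and KRT14 were below it in every library. Of 14 melanoma line markers listed, 11 were found (S100B, TYR and MIA were not), and 9 reached a mean of 1 CPM. AXL, CSPG4, SOX9, MITF and PRAME were highest, and AXL, at 813 to 878 CPM, made up most of the melanoma sum below. MLANA (1.06 to 1.65 CPM) and S100A1 (0.657 to 2.00 CPM) were near the limit, and PMEL and DCT were below 1 CPM on average. Summed marker levels in the empty vector and SLNCR libraries were 1377 to 1406 and 1308 to 1360 CPM for melanoma, 65.4 to 76.2 and 64.3 to 68.9 CPM for epithelium, and 13.9 to 17.8 and 13.9 to 15.1 CPM for fibroblasts. Small and nuclear non-coding RNAs used as a sign of RNA quality summed to 31860 to 36860 CPM and 31240 to 33460 CPM. Within that sum, RN7SL2 was at 1058 CPM in SLNCR replicate 3 and at 1736 to 3133 CPM in the other libraries, and RN7SL1 at 2207 CPM against 3069 to 4215 CPM. The part of these levels in the results was not tested. In bulk RNA, fewer cells of a type and less RNA per cell cannot be told apart.

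p53 acts on its targets through response elements, so the letters that resemble such an element are shown for the members of most interest. RefSeq promoter windows (GRCh38.p14, 250 bases before to 50 after a transcription start) were found for 26 of the 33 genes, in 41 windows. They were searched for the p53 response element consensus of 20 bases, made of a pair of neighbouring 10-base elements with no spacer, which reads the same on both strands. The stretch printed for MDM2 is the promoter inside the gene, within an intron of the longer transcript, which is known as its p53-responsive promoter. It holds a pair of matches, set in capitals, with 2 and 3 mismatches, at 94 and 56 bases before the start (chr12:68808913-68808990, plus strand).
MDM2: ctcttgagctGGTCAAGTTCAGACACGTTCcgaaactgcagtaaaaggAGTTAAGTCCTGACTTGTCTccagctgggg

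Other members with a match are shown because they differed between the groups (FAS, KITLG and FDXR) or had the closest match (DDB2, with 1 mismatch, and AEN, with 2). Capitals mark the 20 matched bases. DDB2 lies at chr11:47214969-47214988 (plus strand), AEN at chr15:88621306-88621325 (plus strand), FAS at chr10:88991309-88991328 (plus strand, in an exon), KITLG at chr12:88580633-88580652 (minus strand) and FDXR at chr17:74872996-74873015 (minus strand). The matches of DDB2, AEN, KITLG and FDXR overlap an annotated untranslated region of some transcript.
DDB2: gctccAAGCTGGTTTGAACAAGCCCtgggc
AEN: gagccGGGCTTGCCCGGGCATGTGGgagct
FAS: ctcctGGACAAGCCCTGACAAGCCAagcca
KITLG: cgagcGGACAAGGTTGGCCTAATCTgccaa
FDXR: ggcccGGGCAGGAGCGGGCTTGCCCtgcgg

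With at most 2 mismatches, 4 of the 26 genes had a match (DDB2, AEN, FAS and MDM2), against 0.649% of all 35116 promoter windows and 0.82% of 27305 gene symbols. With at most 3 mismatches, 10 of the 26 had a match, against 5.2% of windows and 6.39% of symbols. The other matches, each with 3 mismatches, were in GDF15, RPS27L, SESN1 and XPC. These are matches of letters in short windows and do not show binding. Most members are known p53 targets, so a share above that of all genes may be built into their choice and is no separate result. They also have more windows per gene, 41 for 26 genes against 35116 for 27305 symbols.

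Of the 31 tested genes, 6 rose and 2 fell after the SLNCR plasmid (edgeR's quasi-likelihood test, adjusted p under 0.05 over 12797 genes). MDM2, CCNG1, FAS, RRM2B, KITLG and AMZ2 rose, FDXR and TP53I3 fell, and 23 did not pass. The 6 that rose are 19.4% of the tested members, beside 8.84% of all tested genes called higher, and the 2 that fell are 6.45%, beside 7.67% of all genes called lower. The log2 fold changes of the members ran from -0.45 to 0.52, with a median of 0.080 against -0.0097 over all genes, and their median size was 0.14 against 0.16.

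**Figure D1:**
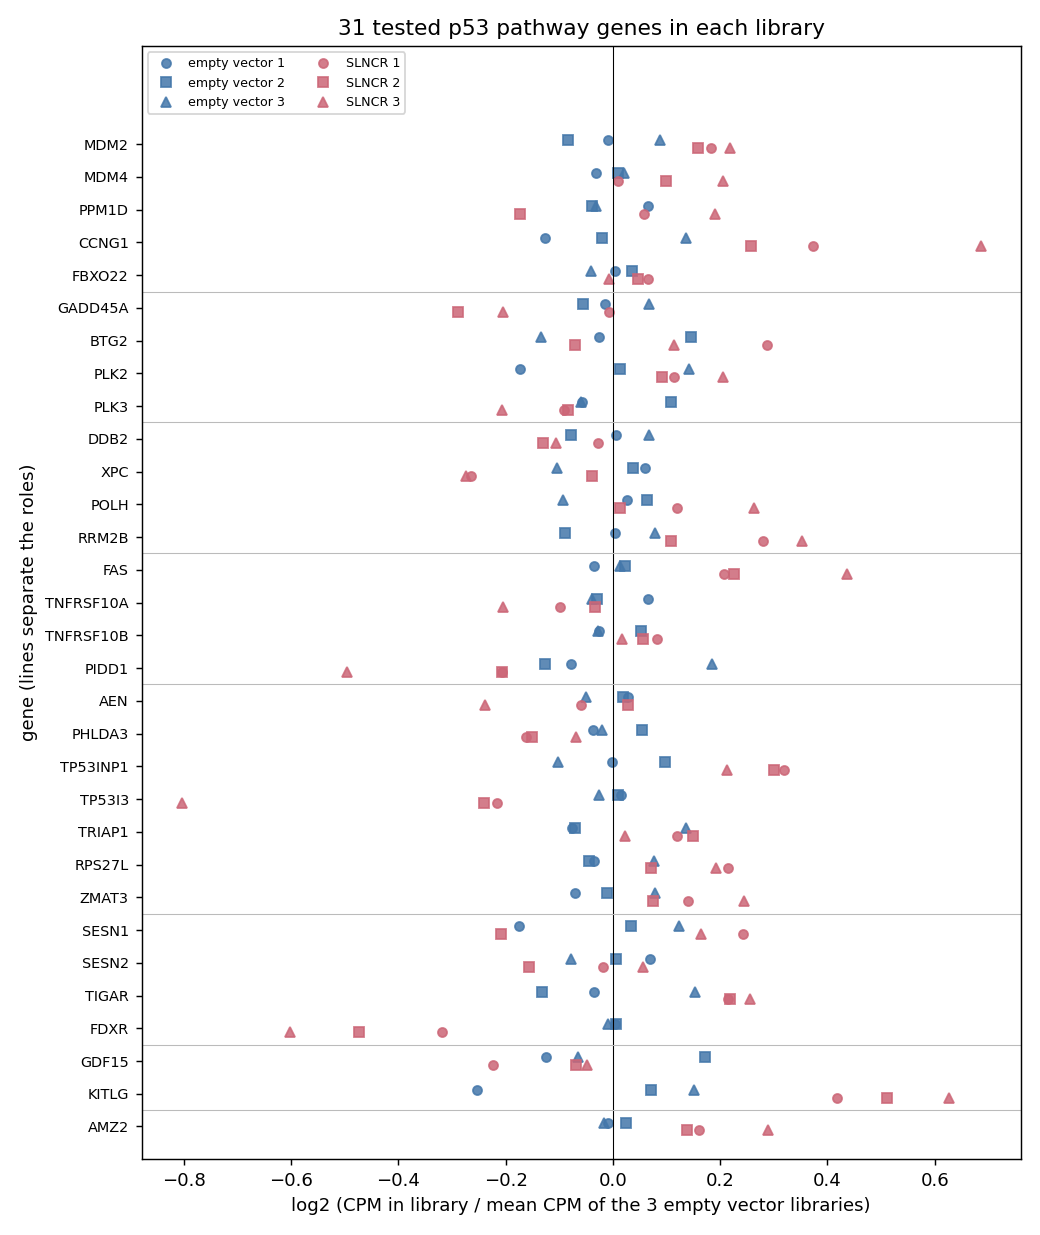
Level of each of the 31 tested genes in every library, as the log2 of CPM divided by the mean CPM of the 3 empty vector libraries (x axis), grouped by role along the y axis, with blue for empty vector and red for SLNCR and a symbol for each replicate. The red points lie to the right of all blue points for 8 genes, among them KITLG, CCNG1 and FAS, and to the left for 5, among them FDXR and TP53I3.

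Groups did not overlap for 8 members that were higher and 5 that were lower, while 19.7% and 19.1% of all tested genes were separated in these directions. Besides the 8 called genes, these were TIGAR and TP53INP1 on the higher side and PIDD1, PHLDA3 and PLK3 on the lower side. In the plot of every gene by library, SLNCR replicate 3 was often the farthest from the empty vector libraries. The median log2 deviation of the 31 genes from their empty vector mean was -0.020, 0.010 and -0.0094 for empty vector replicates 1 to 3 and 0.083, 0.030 and 0.12 for SLNCR replicates 1 to 3.

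The sign of a member's change went with the GC content of its transcript. All 16 members with a GC content below the median of tested genes (47.9%) had a positive log2 fold change, and 5 of them rose. Of the 15 above it, 12 had a negative value, 2 of them FDXR and TP53I3, and AMZ2 was the only gene that rose. Across the 31 genes Pearson's r between log2 fold change and GC content was -0.813 and Spearman's rho -0.805, against -0.637 and -0.692 over all tested genes. The values were similar in 2 lists described below, -0.799 and -0.782 for other p53 targets and -0.831 and -0.835 for p53 regulators. These are descriptions across genes measured in the same 6 libraries. In the tenth of all tested genes with the lowest GC content the median deviation was 0.22, 0.15 and 0.32 in the 3 SLNCR libraries, and in the tenth with the highest it was -0.23, -0.17 and -0.38, so SLNCR replicate 3 was farthest in both.

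When the GC trend of each library was removed before the same edgeR test, 0 of the 31 members passed an adjusted p of 0.05, as did 0.0156% of all genes (2 of 12797). The trend differed between the groups, so any group difference that follows GC content is removed with it, whatever its source. That source was not tested. At an unadjusted p under 0.05 the fit with GC correction had 4 members higher and 2 lower, which is 19.4% of them beside 15.1% of all tested genes. No other tool was run with this correction. The members' median log2 fold change was then 0.063, against 0.0015 over all genes, and their range was -0.23 to 0.31. Of the 31 values 24 became smaller and 22 kept their sign, and r with GC content was -0.199.

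**Figure D2:**
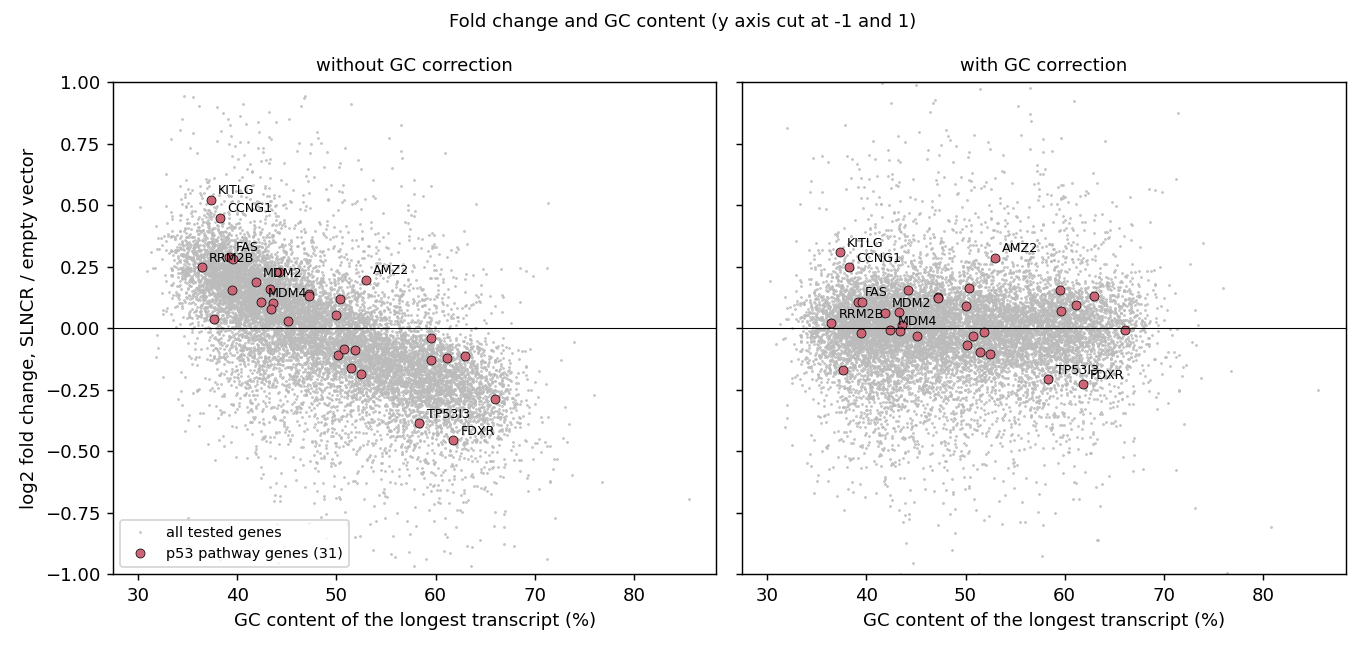
Log2 fold change of SLNCR over empty vector (y axis) against GC content of the longest transcript in percent (x axis) for all tested genes (grey) and the 31 p53 pathway genes (red), without GC correction on the left and with it on the right (some grey points lie beyond the y axis). On the left the red points descend with the grey cloud from KITLG at 0.52 to FDXR at -0.45, and on the right they lie between -0.23 and 0.31 around the flat cloud.

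Every call was also lost in some of the fits that left out a library. Without empty vector replicate 1, without empty vector replicate 2 or without SLNCR replicate 1, 0 of the 31 members passed in edgeR, and 1, 2 and 1 of all genes did. At an unadjusted p under 0.05, 7 members were higher in each of these fits, beside 11.8%, 13.1% and 14.3% of all tested genes, and 3, 3 and 4 were lower, beside 11.1%, 13.6% and 14.2%. Without SLNCR replicate 3, MDM2, CCNG1, KITLG and FDXR passed, beside 1517 of 13030 tested genes. Without empty vector replicate 3 the counts were 7 higher and 1 lower, beside 1884 of 13004 genes called in either direction. Without SLNCR replicate 2 they were 7 higher and 3 lower, beside 3366 of 12873 genes. The 8 called genes kept their direction in all 6 of these fits.

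Among the inhibitors of p53 and the genes of its feedback loop, MDM2 and CCNG1 rose, and MDM4, PPM1D and FBXO22 did not pass. MDM2 (chr12:68808176-68850686 in GENCODE 29, GRCh38) stood at 380.4, 361 and 407 CPM with the empty vector and at 434, 427 and 445 CPM with SLNCR. All 3 SLNCR libraries lay above the highest empty vector library, each by less than the range of the empty vector libraries. The means were 383 ± 22.9 and 436 ± 9.1 CPM (SD, n = 3 each), a log2 fold change of 0.19 (SE 0.052, 1.14-fold, adjusted p = 0.0249 in edgeR). With GC correction the value was 0.063 (SE 0.040, adjusted p = 0.464), and without empty vector replicate 2 it was 0.15 (adjusted p = 0.147).

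MDM4 (chr1:204516379-204558120) was at 98.9, 101.8 and 102.6 CPM with the empty vector and at 101.8, 108.2 and 116.5 CPM with SLNCR. Its groups overlapped, since SLNCR replicate 1 lay within the range of the empty vector. The log2 fold change was 0.11 (SE 0.063, adjusted p = 0.241 in edgeR), and -0.0084 with GC correction. The MDM2 to MDM4 ratio of counts, which is not scaled by length, was 3.85, 3.55 and 3.97 with the empty vector and 4.27, 3.95 and 3.82 with SLNCR, and these groups overlapped as well. Per kilobase of the longest principal transcript, the MDM2 level with the empty vector was 151.7 ± 9.08 CPM, the highest of the set, and that of MDM4 was 10.0 ± 0.19 CPM. Over the longest MDM2 transcript it would be 30.3 CPM per kilobase, so the rank of MDM2 depends on the transcript taken. It also depends on the lengths taken for the other members, such as 6434 bases for RPS27L and 10725 bases for FBXO22.

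CCNG1 (chr5:163437569-163446151) encodes cyclin G1, which helps to activate MDM2 through the phosphatase PP2A. Its level was 140.7, 151.5 and 169 CPM with the empty vector and 199, 184 and 247 CPM with SLNCR. The groups did not overlap, and SLNCR replicate 3 stood well above the other two. The mean rose from 154 ± 14.1 to 209.9 ± 33.1 CPM (SD, n = 3 each), with a log2 fold change of 0.45 (SE 0.105, 1.37-fold, adjusted p = 0.0219 in edgeR). Without SLNCR replicate 3 the value was 0.32 (adjusted p = 0.00135), without empty vector replicate 1 it was 0.39 (adjusted p = 0.11), and with GC correction it was 0.25 (SE 0.068, adjusted p = 0.129). GENCODE names a pseudogene after CCNG1, so reads could be split between them.

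PPM1D, the phosphatase WIP1 that switches off damage signalling to p53, had a log2 fold change of 0.028 (SE 0.098, adjusted p = 0.848 in edgeR) at 28.4 ± 1.16 CPM with the empty vector. FBXO22, a subunit of a ubiquitin ligase that acts on p53 and its cofactors, had 0.037 (SE 0.070, adjusted p = 0.729) at 49.9 ± 1.32 CPM. With GC correction FBXO22 was at -0.17 (adjusted p = 0.258), with an unadjusted p of 0.026. Its GC content, 37.7%, is among the lowest of the set.

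**Figure D3:**
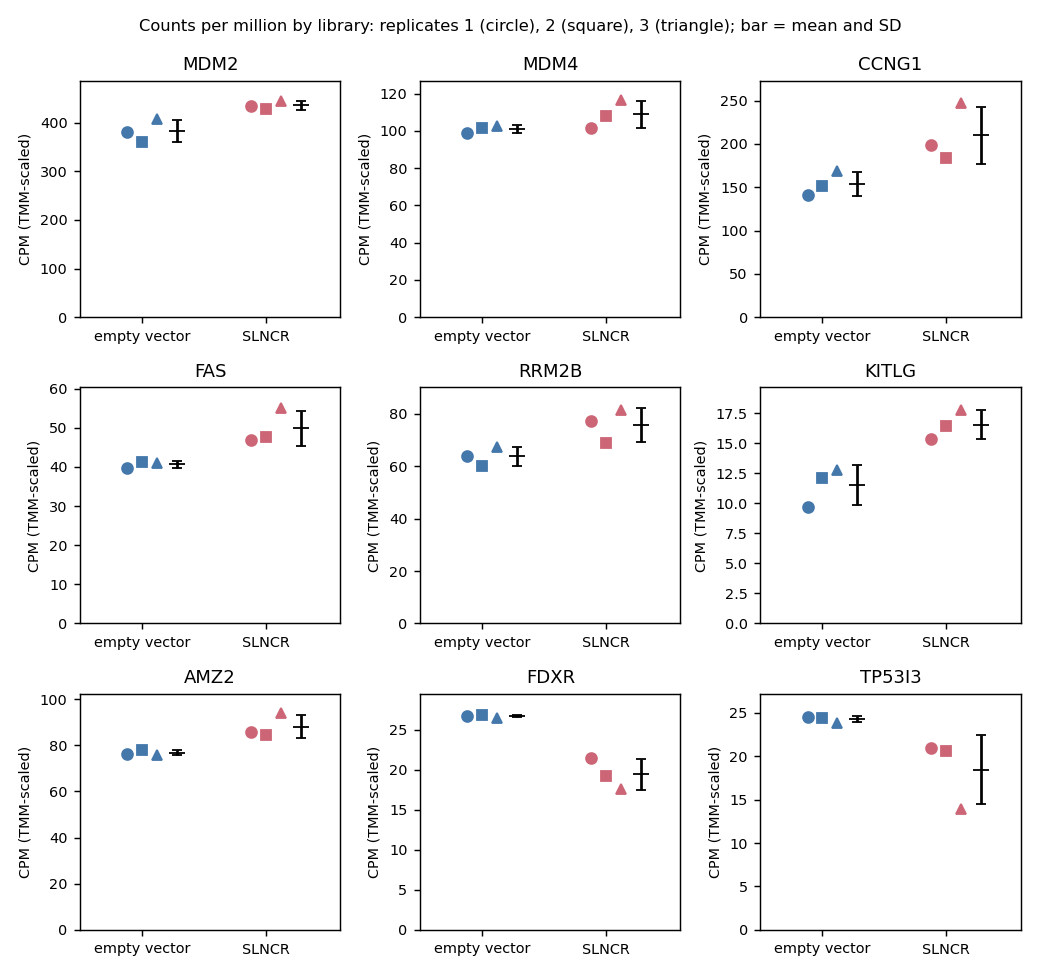
CPM in each library (y axis, from 0) for MDM2, MDM4 and the 7 other called members, with a symbol for each replicate and black bars for the mean and SD of the 3 libraries in each group. The groups are apart for every gene shown except MDM4, and SLNCR replicate 3 (triangle) is the most distant library for each called gene.

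The 4 members that arrest the cell cycle or curb growth gave 0 calls in edgeR, with 0 at an unadjusted p under 0.05. DESeq2 and limma-voom also called none of them, while PLK2 passed in edgeR without empty vector replicate 3 (log2 fold change 0.22, adjusted p = 0.0479). GADD45A, which inhibits the mitotic kinase CDK1, had a log2 fold change of -0.16 (SE 0.083, adjusted p = 0.175 in edgeR), at 49.1 ± 2.14 and 43.9 ± 4.48 CPM. BTG2, an antiproliferative cofactor of mRNA deadenylation, was at 15.7 ± 1.55 and 17.1 ± 2.11 CPM. The polo-like kinases PLK2 and PLK3 had values of opposite sign, 0.14 (adjusted p = 0.161) and -0.12 (adjusted p = 0.321). With the GC trend removed PLK3 turned to 0.096, whereas PLK2 stayed at 0.13.

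Of the 4 genes for DNA repair and nucleotide supply, RRM2B rose and DDB2, XPC and POLH did not pass. RRM2B encodes p53R2, the subunit of ribonucleotide reductase that supplies nucleotides for repair outside S phase. It was at 63.9, 59.9 and 67.3 CPM with the empty vector and at 77.4, 68.7 and 81.3 CPM with SLNCR. SLNCR replicate 2 was only slightly above empty vector replicate 3, and the groups did not overlap. The log2 fold change was 0.25 (SE 0.075, 1.19-fold, adjusted p = 0.0343 in edgeR). With GC correction it was 0.020 (SE 0.060, adjusted p = 0.912), and RRM2B has the lowest GC content of the set, 36.4%. Without SLNCR replicate 3 it was 0.20 (adjusted p = 0.0615), and without empty vector replicate 2 it was 0.21 (adjusted p = 0.152).

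XPC, the damage sensor of nucleotide excision repair, stood at 61.6, 60.6 and 54.9 CPM with the empty vector and at 49.2, 57.5 and 48.9 CPM with SLNCR. SLNCR replicate 2 lay inside the empty vector range. Its log2 fold change was -0.19 (SE 0.080, adjusted p = 0.106 in edgeR), and -0.11 with GC correction. XPC passed without SLNCR replicate 2 (-0.27, adjusted p = 0.0189). DDB2, a sensor of ultraviolet damage whose start region holds the closest match to the response element, had -0.087 (SE 0.069, adjusted p = 0.386) at 64.6 ± 3.26 and 60.9 ± 2.25 CPM. POLH, the polymerase eta that copies past ultraviolet lesions, had 0.13 (SE 0.079, adjusted p = 0.239).

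Of the 4 genes of the death receptor pathway, FAS rose and TNFRSF10A, TNFRSF10B and PIDD1 did not pass. FAS (chr10:88990582-89015785) encodes the receptor for Fas ligand. Its level was 39.7, 41.3 and 41.0 CPM with the empty vector and 47.0, 47.6 and 55.1 CPM with SLNCR. The empty vector libraries lay close together and all SLNCR libraries were above them, SLNCR replicate 3 by the widest margin. FAS had a log2 fold change of 0.29 (SE 0.080, 1.22-fold, adjusted p = 0.0246 in edgeR). It was 0.11 with GC correction (SE 0.068, adjusted p = 0.461), 0.22 without SLNCR replicate 3 (adjusted p = 0.0607) and 0.27 without empty vector replicate 1 (adjusted p = 0.127).

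The TRAIL receptors TNFRSF10A and TNFRSF10B had log2 fold changes of -0.11 (SE 0.077, adjusted p = 0.328 in edgeR) and 0.053 (SE 0.055, adjusted p = 0.511). Their levels per kilobase with the empty vector were 16.2 ± 0.65 and 35.3 ± 1.13 CPM, close to the 15.9 ± 0.34 CPM of FAS for the former. PIDD1, the scaffold of the PIDDosome that activates caspase-2, was at 20.1, 19.4 and 24.1 CPM with the empty vector and at 18.4, 18.4 and 15.02 CPM with SLNCR. The SLNCR libraries were all lower, with a log2 fold change of -0.29 (SE 0.115, adjusted p = 0.0862). PIDD1 has the highest GC content of the set, 66.0%, and its value was -0.0052 with GC correction (adjusted p = 0.988).

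Of the 7 tested genes that act on apoptosis inside the cell, TP53I3 fell and 6 did not pass. TP53I3 (chr2:24077433-24085861), an oxidoreductase also called PIG3, was at 24.5, 24.5 and 23.9 CPM with the empty vector and at 20.9, 20.6 and 13.9 CPM with SLNCR. The SLNCR libraries were all lower, and SLNCR replicate 3 lay far below the other two. The mean went from 24.3 ± 0.37 to 18.5 ± 3.95 CPM (SD, n = 3 each), a log2 fold change of -0.39 (SE 0.125, adjusted p = 0.0448 in edgeR). Without SLNCR replicate 3 the value was -0.23 (adjusted p = 0.136), without empty vector replicate 3 it was -0.40 (adjusted p = 0.0821), and with GC correction it was -0.21 (SE 0.108, adjusted p = 0.371).

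RPS27L, a ribosomal protein paralogue that binds MDM2, was at 136.3, 135.3 and 147.2 CPM with the empty vector and at 162, 146.6 and 159.4 CPM with SLNCR. SLNCR replicate 2 was just below empty vector replicate 3. This gave a log2 fold change of 0.16 (SE 0.060, adjusted p = 0.0701 in edgeR), and 0.065 with GC correction. RPS27L passed without SLNCR replicate 2 (0.20, adjusted p = 0.0204) and without the filter on low counts (0.18, adjusted p = 0.0345). Reads of RPS27L may be shared with related ribosomal protein genes and pseudogenes.

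TP53INP1, a stress protein that promotes p53 phosphorylation, had separate groups at 9.99 ± 0.69 and 12.1 ± 0.47 CPM, with a log2 fold change of 0.28 (SE 0.123, adjusted p = 0.115 in edgeR). ZMAT3, an RNA-binding protein that affects splicing, had 0.15 (SE 0.070, adjusted p = 0.127) and turned to -0.020 with GC correction. TRIAP1, an inhibitor of apoptosis in the mitochondrion, had 0.10 (SE 0.089, adjusted p = 0.437). The exonuclease AEN had -0.084 (SE 0.067, adjusted p = 0.387) and PHLDA3, a repressor of AKT signalling, -0.13 (SE 0.068, adjusted p = 0.191). PHLDA3 turned to 0.070 with GC correction.

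TP53I11 was barely present, with 2, 1 and 3 counts for the empty vector and 0, 2 and 1 for SLNCR. It did not pass the filter on low counts. SPATA18, which takes part in the quality control of mitochondria, had 1 count in empty vector replicate 1 and 0 in the other 5 libraries. A count of 0 allows up to 3 counts, which is 0.286 to 0.333 CPM depending on the library, for counting error only. When both genes were tested without that filter, neither was called (adjusted p = 0.59 for TP53I11 and 0.579 for SPATA18 in edgeR), and at this depth only a large difference could have been detected.

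Of the 4 tested genes of metabolism, redox balance and mitochondria, FDXR fell and SESN1, SESN2 and TIGAR did not pass. FDXR (chr17:74862497-74873031) encodes ferredoxin reductase, which passes electrons for iron-sulfur cluster and steroid synthesis in mitochondria. It was at 26.7, 26.8 and 26.5 CPM with the empty vector and at 21.4, 19.2 and 17.6 CPM with SLNCR. The empty vector libraries were nearly equal and every SLNCR library was lower. FDXR had the smallest adjusted p of the set, with a log2 fold change of -0.45 (SE 0.097, 0.730 of the empty vector level, adjusted p = 0.0139 in edgeR). With GC correction it was -0.23 (SE 0.091, adjusted p = 0.236), with an unadjusted p of 0.0202, and without empty vector replicate 1 it was -0.45 (adjusted p = 0.106).

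TIGAR, which lowers glycolysis and feeds the pentose phosphate pathway, was at 41.1, 38.4 and 46.8 CPM with the empty vector and at 48.9, 49.0 and 50.3 CPM with SLNCR. All SLNCR libraries were higher, and they lay closer to each other than the empty vector libraries did. Its value was a log2 fold change of 0.23 (SE 0.081, adjusted p = 0.0586 in edgeR), and 0.15 with GC correction (adjusted p = 0.312). TIGAR passed without empty vector replicate 3 (0.31, adjusted p = 0.0297) and without the filter on low counts (0.24, adjusted p = 0.0249). The sestrins SESN1 and SESN2, which restrain mTORC1, had 0.080 (SE 0.126, adjusted p = 0.676) and -0.040 (SE 0.088, adjusted p = 0.766). SESN2 was at 0.16 with GC correction (adjusted p = 0.413).

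Of the secreted ligands, KITLG rose and GDF15 did not pass. KITLG (chr12:88492793-88580851) encodes stem cell factor, the ligand of the receptor KIT, which melanocytes need for survival and pigmentation. It was at 9.68, 12.1 and 12.8 CPM with the empty vector and at 15.4, 16.4 and 17.8 CPM with SLNCR. Every SLNCR library was above every empty vector library. The mean rose from 11.5 ± 1.64 to 16.6 ± 1.21 CPM (SD, n = 3 each), the highest log2 fold change of the set at 0.52 (SE 0.125, 1.44-fold, adjusted p = 0.0162 in edgeR). With GC correction the value was 0.31 (SE 0.116, adjusted p = 0.208), and without empty vector replicate 1 it was 0.41 (adjusted p = 0.117).

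GDF15, a stress cytokine, was at 22.1 ± 2.47 and 20.4 ± 1.33 CPM, with a log2 fold change of -0.11 (SE 0.105, adjusted p = 0.471 in edgeR). It was at 0.13 with GC correction (adjusted p = 0.576). Both ligands had positive values in the fit with GC correction, and neither passed.

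AMZ2, a metallopeptidase found in lists of p53 targets, was at 76.3, 78.1 and 75.9 CPM with the empty vector and at 85.8, 84.5 and 93.8 CPM with SLNCR. The groups did not overlap, and SLNCR replicate 3 was highest. AMZ2 had a log2 fold change of 0.20 (SE 0.065, 1.15-fold, adjusted p = 0.0461 in edgeR) without correction and 0.29 (SE 0.060, 1.22-fold, adjusted p = 0.0573) with GC correction, where its unadjusted p was 9.02e-05. AMZ2 was the only called member with a larger value after GC correction, and its GC content of 52.96% lies above the median. Of the 6 fits without a library and without GC correction, it passed only without SLNCR replicate 2 (adjusted p = 0.0236). In these fits its value was 0.15 without SLNCR replicate 3 (adjusted p = 0.113) and 0.19 without empty vector replicate 3 (adjusted p = 0.0932). It did not pass in DESeq2 or with upper quartile factors. With GC correction it passed without SLNCR replicate 2 (0.33, adjusted p = 0.00348), as did 668 of all genes. It also passed without SLNCR replicate 3 (0.23, adjusted p = 0.0302), as did 101 of all genes. GENCODE names pseudogenes after AMZ2, so its counts are uncertain.

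**Figure D4:**
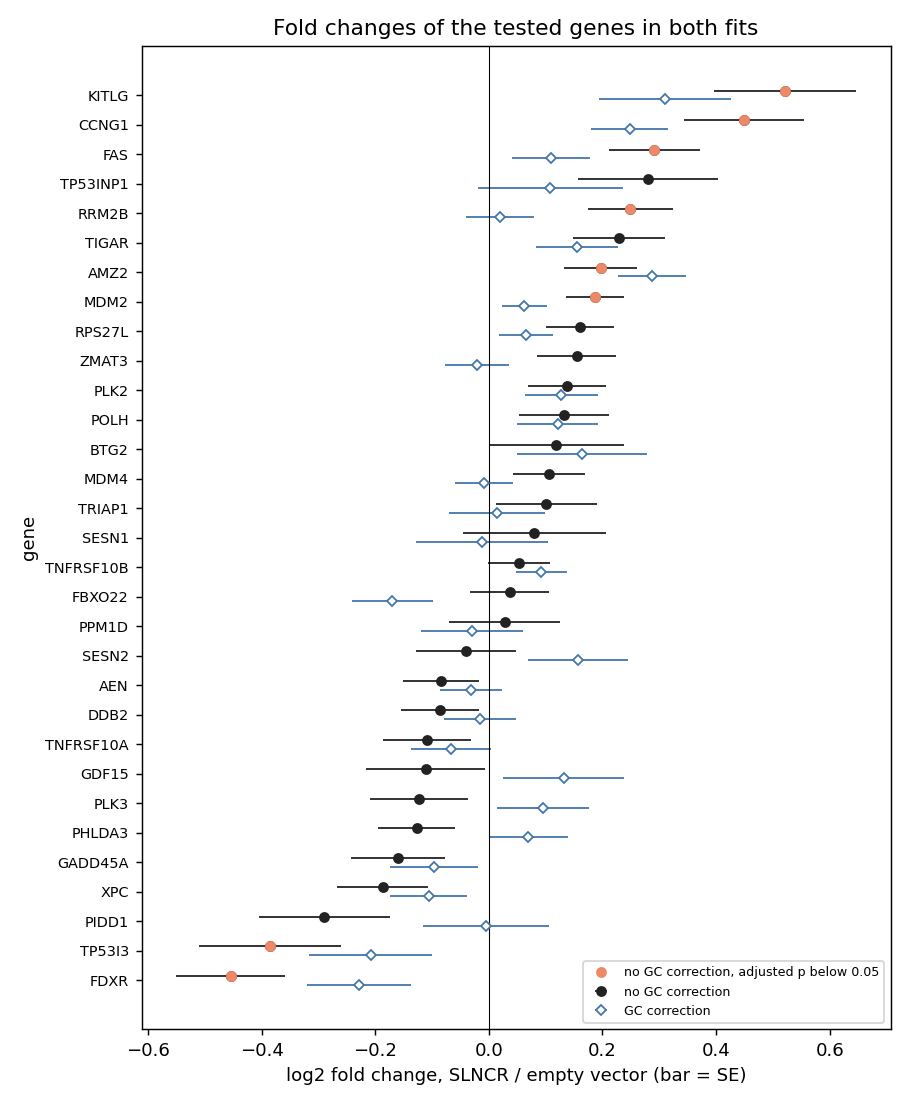
Log2 fold change of SLNCR over empty vector (x axis, bars are SE) for the 31 tested genes, ordered by the value without GC correction, with filled circles for that fit (orange where the adjusted p is below 0.05) and open diamonds for the fit with GC correction. KITLG moves from 0.52 to 0.31, RRM2B from 0.25 to 0.020 and FDXR from -0.45 to -0.23, while AMZ2 moves from 0.20 to 0.29.

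The plot of both fits shows how far each gene moved. RRM2B, PIDD1, FBXO22, GDF15 and PHLDA3 were among the genes at the extremes of GC content that moved most, and AMZ2, PLK2 and POLH, nearer the middle, moved less. Of the 8 called genes, KITLG, CCNG1, AMZ2 and FDXR had an unadjusted p under 0.05 after correction (0.014, 0.00328, 9.02e-05 and 0.0202), and FBXO22 and TIGAR did so among the others (0.026 and 0.0435). With GC content taken from the principal transcript, an alternative chosen after seeing the data, TIGAR's log2 fold change was 0.076 (adjusted p = 0.649), and 3 members instead of 4 were higher at an unadjusted p under 0.05.

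Levels per kilobase with the empty vector, by the longest principal transcript, ran from 1.77 ± 0.12 CPM (TP53INP1) to 151.7 CPM (MDM2) among the tested genes. PLK2, at 70.5 ± 7.65 CPM, and CCNG1, at 62.5 ± 5.75 CPM, followed MDM2. Their intervals of mean ± SD overlapped, and they were not compared library by library. AEN was next at 42.5 ± 1.2 CPM, followed by TNFRSF10B at 35.3 ± 1.13 CPM and DDB2 at 34.6 ± 1.75 CPM, which lay within their spread. KITLG, at 2.12 ± 0.30 CPM, was the lowest but for TP53INP1. The 6 genes that rose lay from near the bottom to the top of this order, which depends on the transcript length taken for each gene.

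Of the tested members, 11 overlap a tested gene on the opposite strand, and the strand setting of the counting is not given in the sources used here. They include MDM2 (with CPM, the carboxypeptidase M gene), FAS (with ACTA2) and TP53I3 (with FAM228B), as well as TP53INP1, RPS27L, PIDD1, XPC, POLH, PLK3, FBXO22 and TNFRSF10B. Reads of such partners may be counted together. RRM2B, CCNG1, KITLG, AMZ2 and FDXR have no such partner.

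A list of other p53 targets, none of them members, gave a comparison with the rest of the pathway. Of 61 tested, 3 rose (PTP4A1, REV3L and TM7SF3) and 4 fell (PLXNB2, SLC12A4, BAX and SFN), which is 4.92% and 6.56% beside 8.84% and 7.67% of all tested genes, and 54 did not pass. TM7SF3, BAX and SFN are named after their values were seen. CDKN1A, the cell cycle inhibitor p21 and the best known p53 target, stood at 290.1, 261 and 278 CPM with the empty vector and at 283, 274 and 276 CPM with SLNCR, with overlapping groups and a log2 fold change of 0.0056 (SE 0.053, adjusted p = 0.936 in edgeR). With GC correction CDKN1A was at 0.18 (SE 0.046, adjusted p = 0.0886). The list's median log2 fold change was -0.0095, and 0.012 with GC correction, where 0 passed. At an unadjusted p under 0.05, 3 were then higher and 3 lower, 9.84% of the list beside 15.1% of all tested genes.

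Within that list PTP4A1, a tyrosine phosphatase, had a log2 fold change of 0.31 (SE 0.077, adjusted p = 0.0201 in edgeR) and REV3L, the catalytic subunit of polymerase zeta, 0.28 (SE 0.078, adjusted p = 0.0268). The plexin PLXNB2 was at -0.27 (SE 0.060, adjusted p = 0.014) and the potassium-chloride cotransporter SLC12A4 at -0.38 (SE 0.096, adjusted p = 0.0185). The GC contents of PTP4A1 and REV3L are 35.6% and 40.0% and those of PLXNB2 and SLC12A4 are 63.1% and 60.9%, the same order of sign and GC content as among the members.

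Of 38 tested regulators of p53 other than MDM2 and MDM4, 3 rose (RCHY1, SETD7 and CHEK1) and 5 fell (CREBBP, PML, KAT5, DAXX and CABLES1), which is 7.89% and 13.2% beside 8.84% and 7.67% of all tested genes, and 30 did not pass. SETD7, CHEK1, DAXX and CABLES1 are named after their values were seen. RCHY1, the ubiquitin ligase PIRH2 that acts on p53, had a log2 fold change of 0.40 (SE 0.116, adjusted p = 0.0303 in edgeR). The acetyltransferases CREBBP and KAT5 were at -0.19 (SE 0.052, adjusted p = 0.0257) and -0.31 (SE 0.090, adjusted p = 0.0306), and PML, the scaffold of nuclear bodies, at -0.21 (SE 0.062, adjusted p = 0.0287). With GC correction 0 of the 38 passed, and at an unadjusted p under 0.05 there were 1 higher and 1 lower, 5.26% of the list beside 15.1% of all tested genes.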

How the data were processed

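The deposited table holds raw read counts per gene, judged from their being whole numbers with different sums. The submitters' processing notes name cutadapt, STAR and DESeq2 1.24.07 as tools and GRCh38 as the build. What each tool did, the counter, its annotation and its strand setting: not given in the sources used here. Per the labels' protocols, ribosomal RNA was depleted and both ends were read at 150 bases.

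Of 20238 rows, 1857 name no gene (2.15% to 2.59% of counts) and were left out, as were 63 rows that repeat a neighbour with identical counts (0.611% to 0.745%), none of them members. Identifiers were matched to symbols through a list of gene names and, where it had no entry, through GENCODE 29 (18376 matched in either). The SLNCR and empty vector libraries were compared by edgeR 4.0.16 under R 4.3.3 (quasi-likelihood F-test, robust, TMM, default filter on low counts, two-sided, Benjamini-Hochberg over 12797 genes, threshold 0.05). The SE is the size of a log2 fold change over the root of its F. CPM carry the TMM factors, with a prior count of 2 on the log2 scale. For the GC correction, a gene's log2 CPM minus its mean over libraries was smoothed per library against the GC content of its longest transcript (symmetric loess, degree 2, span 0.5, genes with a mean log2 CPM above 1), and the curve entered edgeR as an offset. Alternatives were DESeq2 1.42.0, limma-voom (limma 3.58.1), other size factors and filters, the replicate number as a block, and leaving out each library, with and without GC correction. GC content of the principal transcript was an alternative chosen after seeing the data. The depth of 9287450 to 10822083 counts left 12640 to 12900 genes with at least 10 counts in a library. Libraries of a group were no copies of each other: chi-square over its degrees of freedom was 1.74 to 6.58.

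The members and gene lists were chosen with earlier results of these data known, so their counts are set beside those of all tested genes, with no test over a list. All 33 members are accounted for. Values in every library are given for MDM2, MDM4, the called members and the 4 next in adjusted p (TIGAR, RPS27L, PIDD1 and XPC), and up to 4 genes with the smallest adjusted p are named with values from each other list, with CDKN1A. The other called genes of these lists (TM7SF3, BAX, SFN, SETD7, CHEK1, DAXX and CABLES1) are named by symbol, chosen after their values were seen.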

Additional observations from a re-analysis of the deposited data

How the results depend on the processing

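Other size factors, filters, DESeq2 and limma-voom gave 5 to 8 members higher and 2 lower, beside 1681 (DESeq2) to 2904 (no filter on low counts) of all genes. The 8 higher came without the filter on low counts. The 7 calls of DESeq2 and of upper quartile factors, and all 8 of limma-voom, were among the 8 of edgeR. With GC correction, by the longest or the principal transcript, 0 members were higher and 0 lower, 0 of the other p53 targets (7 without correction) and 0 of the regulators (8) passed, and 2 of all genes (2112). Leaving out each library in turn gave, with and without GC correction, 0 to 7 members higher, 0 to 3 lower, 0 to 14 other targets, 0 to 16 regulators and 0 to 3366 of all genes. The members' median log2 fold change ran from 0.022 to 0.11 in these fits. RRM2B ran from -0.019 to 0.32 and was below 0 in 2 of them, both with GC correction (-0.019 and -0.0022). The causes were not tested. Of 682 values of single members under 22 alternatives, 573 kept their sign and side of the threshold or stayed uncalled, 97 lost a call, 10 gained it and 2 turned a called direction. The sign of 14 members turned in at least 1 alternative, and of the 8 called only that of RRM2B.

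The replicate number was tried as a block. Deviations of same-numbered libraries correlated at 0.041, 0.022 and 0.19, so the numbers were not taken to pair the libraries, and not every library correlated best with its own number (empty vector replicate 1 and SLNCR replicate 2 at 0.14). With the replicate block 9 members were higher and 3 lower (gained: RPS27L, TIGAR and PLK2 higher, XPC lower), and 11 other targets, 12 regulators and 3523 of all genes passed. With GC correction and the replicate block together 2 members were higher (CCNG1 and AMZ2) and 0 lower, and 3 other targets, 1 regulator and 407 of all genes passed. Genes near 10 counts have imprecise fold changes at this depth.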
